A study of Mus musculus with 59 samples.

Results

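The regions described are the clustered CTCF peaks of mouse embryonic stem cells (ESCs). A peak of the wild-type ESC list was called clustered when its start lay within 2000 bp of the start of another peak of that list on the same chromosome, and isolated when no other start lay within 20000 bp. Of 83173 peaks, 10015 were clustered (12.0%), 14931 were isolated (18.0%) and the other 58227 lay between these classes. Distances between peaks therefore chose the members, and sizes, spans and spacing below are a description of that choice with no test.

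CTCF and the nucleosome-sliding ATPase SMARCA5 were mapped in mouse cells by chromatin immunoprecipitation and sequencing (ChIP-seq). The series had 59 samples, 31 from ChIP and 28 of input DNA, and the ChIP samples were summarised in 16 peak lists, 15 for CTCF and 1 for SMARCA5. Every group had a single list, made from 1 to 3 samples, so a difference between 2 lists could not be set against replicates. Depth per library is not given in the sources used here, and intervals on shares cover counting error alone.

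The ESC groups were the E14Tg2a line, the same line with Smarca5 knocked out by paired nickase guides, and cells that overexpressed a Flag- and biotin-tagged SMARCA5, pulled down with streptavidin, for the SMARCA5 list. All other groups came from embryonic fibroblasts carrying the Oct4-GFP reporter OG2, taken on day 0 or, from day 3 on, as reprogramming cells. Day 0 cells, Thy1+ cells (days 3 and 9), SSEA1- Thy1- and SSEA1+ cells (both on days 6 and 9) and day 12 Oct4-GFP+ cells each carried an shRNA against luciferase (the control) or against Ctcf. Unsorted day 10 cells received the reprogramming factors OSKM (Oct4, Sox2, Klf4 and c-Myc) alone, OSKM with Ctcf, or OSKM with Ctcf and an shRNA against Smarca5. Fibroblasts carry Thy1 on their surface, and SSEA1 appears on cells on their way to pluripotency. Which of the day 3 Thy1+ samples carried the Ctcf shRNA is given one way by the titles and the other way by the remaining labels. Titles were followed, each population's values are given separately, and means over populations that include the Thy1+ lists are also given without them.

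CTCF is a zinc-finger protein that binds a long, conserved DNA motif, stops cohesin as it extrudes chromatin loops and so sets domain borders and insulates promoters from enhancers. SMARCA5, also known as SNF2H, is the motor of ISWI remodelling complexes and spaces nucleosomes around bound CTCF. Tandem CTCF sites are known from domain borders and from insulators such as the one between H19 and Igf2.

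The DNA of clustered peaks is shown for 3 genes whose RefSeq promoter window (250 bases before to 50 after the annotated start, GRCm38.p6) held the centre of a clustered peak and the motif letters searched, chosen after their values were seen. Fhdc1 encodes a formin-family actin regulator, Rufy3 an adaptor of neurons and lysosomes, and Tgfb1 the signalling protein TGF-beta 1. Capitals mark CCNNNAGNNGGC, core letters of the CTCF motif, found on either strand; each sequence runs 5′ to 3′ on the strand of its gene, plus for Rufy3 and Tgfb1 and minus for Fhdc1. The windows are chr7:25686752-25687051 (Tgfb1), chr5:88564790-88565089 (Rufy3), chr3:84480390-84480689 (Fhdc1, first start) and chr3:84479442-84479741 (Fhdc1, second start).
Tgfb1: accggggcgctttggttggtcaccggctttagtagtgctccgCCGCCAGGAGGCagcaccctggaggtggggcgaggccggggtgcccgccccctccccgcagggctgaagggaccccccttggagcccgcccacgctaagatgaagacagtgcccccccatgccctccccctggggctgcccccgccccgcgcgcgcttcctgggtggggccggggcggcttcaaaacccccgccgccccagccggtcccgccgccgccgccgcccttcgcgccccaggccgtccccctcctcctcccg
Rufy3: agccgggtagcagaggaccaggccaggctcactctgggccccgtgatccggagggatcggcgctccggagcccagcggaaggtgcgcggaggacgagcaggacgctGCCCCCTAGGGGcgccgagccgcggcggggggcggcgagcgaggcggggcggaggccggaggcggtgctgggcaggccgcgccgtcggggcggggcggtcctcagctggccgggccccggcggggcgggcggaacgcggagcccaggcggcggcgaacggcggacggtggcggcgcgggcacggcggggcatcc
Fhdc1 first start: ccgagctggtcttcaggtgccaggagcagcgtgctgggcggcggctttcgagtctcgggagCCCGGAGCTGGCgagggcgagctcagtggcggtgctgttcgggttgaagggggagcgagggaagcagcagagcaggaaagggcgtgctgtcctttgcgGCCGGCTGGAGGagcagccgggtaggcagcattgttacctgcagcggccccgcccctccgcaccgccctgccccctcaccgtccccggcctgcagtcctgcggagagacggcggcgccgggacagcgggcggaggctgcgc
Fhdc1 second start: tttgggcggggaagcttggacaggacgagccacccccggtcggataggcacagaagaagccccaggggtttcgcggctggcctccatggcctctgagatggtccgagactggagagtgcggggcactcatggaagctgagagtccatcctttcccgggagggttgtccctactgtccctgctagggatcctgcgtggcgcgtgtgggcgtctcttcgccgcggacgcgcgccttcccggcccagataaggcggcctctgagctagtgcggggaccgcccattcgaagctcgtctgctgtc
The 2 Fhdc1 windows lie in one cluster of 3 peaks, all of which overlapped SMARCA5. The window of the first start held the letters once on each strand, and its peak was kept in Smarca5 knockout ESCs and found in 4 of the other 14 CTCF lists. The window of the second start held no match, and its peak was absent in the knockout and found in 1 other list. At Tgfb1 the match began at base 43, close to the peak centre at base 58, and the peak was in 13 of 14 other lists. At Rufy3 the match began at base 107, the centre was at base 82, and the peak was in 12 of them.

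Over all promoters, the letters CCNNNAGNNGGC on either strand occurred in 8.61% of 32851 windows. They occurred in 112 of the 417 windows that held the centre of a clustered peak (26.9%, 95% Wilson interval 22.8 to 31.3), in 91 of 361 with an isolated peak (25.2%, 21.0 to 29.9) and in 32.1% of 1966 with a peak of the class between (30.1 to 34.2). The intervals for clustered and isolated peaks overlapped widely. Median GC content was 64.3% in windows with a clustered peak, 61.7% with an isolated peak and 52.7% over all windows, and its part in these shares was not tested. A match describes letters in a window and does not show a bound site.

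The 10015 clustered peaks formed 4866 clusters, taken as chains of starts each within 2000 bp of the next. Clusters of 2 peaks numbered 4603 (94.6%), clusters of 3 numbered 245, clusters of 4 numbered 16, and 2 clusters had 5 peaks. Neighbouring starts were a median of 1366 bp apart, and clusters spanned a median of 1804 bp and at most 6560 bp. All intervals are 400 bp long. The smallest distance was 418 bp, and 41 of 5149 neighbouring starts were under 800 bp apart, after which counts rose to 890 between 800 and 999 bp and fell slowly to 770 between 1800 and 1999 bp. Peaks just inside and just outside the threshold had similar values: of 722 peaks within the last 100 bp inside it, 47.8% overlapped SMARCA5 and 94.7% were kept in the knockout, and of 741 within the first 100 bp outside it, 49.1% and 95.1%.

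By the same rule, clustering was less frequent in most other lists, which were also shorter. It ran from 4.08% of the 23600 peaks of the day 0 Ctcf shRNA list to 13.1% of the 89567 peaks of the knockout ESC list. The day 12 control list had 10.6% of 53043 and the SMARCA5 list 10.7% of 46965. The 8 sorted lists held overlapping intervals, which count as clustered, with 103 to 189 neighbouring starts under 400 bp apart (182 in the day 12 control list). The ESC and day 0 lists had 0 such starts and the day 10 lists 1 each. These shares are thus not fully alike between lists, and the part of the overlapping intervals was not tested. The share of clustered peaks on single chromosomes of the wild-type ESC list ran from 7.93% on chromosome X and 8.81% on chromosome 18 to 14.3% on chromosome 11 and 14.6% on chromosome 5, leaving aside chromosome Y with 4 of 30 peaks.

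Clustered peaks overlapped SMARCA5 more often than isolated ones. A SMARCA5 peak overlapped 48.6% of all wild-type ESC CTCF peaks, 54.6% of the clustered peaks (53.6 to 55.6), 51.0% of the class between and 35.0% of the isolated peaks. The difference between clustered and isolated peaks was 19.6 percentage points (95% Newcombe interval 18.3 to 20.8) and was positive on 20 of 20 chromosomes, Y not compared. All of these overlaps had identical start positions in the 2 lists, as the 3 ESC lists share 1 set of coordinates.

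This gap was mostly a low share in isolated peaks and less a high one in clustered peaks. With a neighbour over 5000 and up to 5500 bp away, 52.9% of peaks overlapped SMARCA5, and the share then fell to 46.7% between 15000 and 20000 bp, 39.3% between 20000 and 50000 bp and 25.5% beyond 50000 bp. Against peaks with a neighbour over 2000 and up to 5000 bp away, clustered peaks had a share only 4.24 points higher, and against those from 5000 to 20000 bp, 3.26 points higher. Within the members the share still moved with spacing, from 59.5% (57.3 to 61.8) with a neighbour within 1000 bp to 51.5% (49.9 to 53.1) between 1500 and 2000 bp.

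The SMARCA5 share also moved with how widely a site was used. Counting the control lists that held a site among day 0, day 10 OSKM and SSEA1- Thy1-, which have coordinates of their own, 43.6% of clustered peaks found in 0 of these lists overlapped SMARCA5, against 24.6% of isolated peaks. Among peaks found in all 3, the shares were 71.2% and 53.6%. Clustered peaks were thus higher at each end of this scale.

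**Figure D1:**
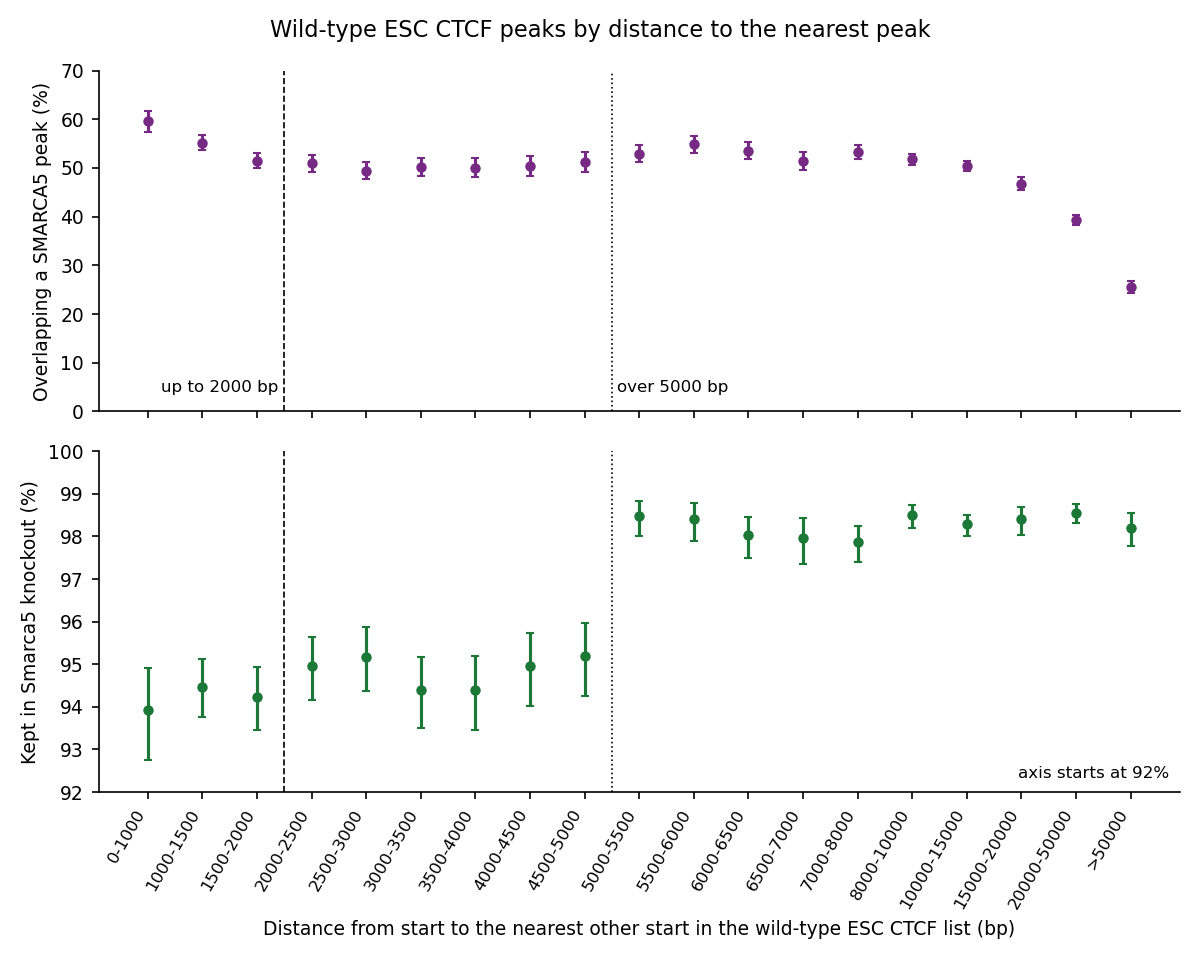
Share of wild-type ESC CTCF peaks that overlap a SMARCA5 peak (top) and that are kept in Smarca5 knockout ESCs (bottom, axis from 92%), by distance in bp to the nearest other start. Points are shares and bars are 95% Wilson intervals. The dashed line ends the clustered peaks at 2000 bp and the dotted line stands at 5000 bp, where the kept share steps up.

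In Smarca5 knockout ESCs, clustered peaks were absent more often than isolated ones. The knockout list held 97.1% of all wild-type peaks, 94.3% of the clustered peaks (93.8 to 94.7), 97.3% of the class between and 98.5% of the isolated peaks. In counts, 573 clustered and 232 isolated peaks were absent. The kept share of clustered minus isolated peaks was -4.17 points (-4.68 to -3.68), and it was negative on 20 of 20 chromosomes.

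The lower share in the knockout was not particular to peaks within 2000 bp of each other. It held for every distance up to 5000 bp and ended there: 95.1% of the 4906 peaks with a neighbour over 4000 and up to 5000 bp away were kept, and 98.4% of the 6555 with a neighbour over 5000 and up to 6000 bp away. Against peaks with a neighbour over 2000 and up to 5000 bp away, the difference was only -0.564 points (-1.14 to -0.00886). The number of neighbouring starts stepped up at the same distance in each of the 16 lists, by a factor of 1.24 to 1.63 from the 4000 to 5000 bp bin to the 5000 to 6000 bp bin. In the wild-type ESC list these bins held 3067 and 4416 distances. The cause of this step, and its part in every comparison of clustered with more distant peaks, was not tested.

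Peaks with SMARCA5 were kept more often, in clusters as elsewhere. Of 5467 clustered peaks with SMARCA5, 95.8% were kept (95.3 to 96.3), and of 4548 without it, 92.4% (91.6 to 93.1). In isolated peaks the shares were 99.1% and 98.1%. In clusters of 2 with SMARCA5 on 1 peak and 1 peak absent in the knockout, numbering 253, the absent peak was the one without SMARCA5 in 175 (69.2%) and the one with it in 78. Losses were also rare at widely used sites: 99.6% of clustered peaks found in all 3 of the control lists named above were kept, against 90.5% of those found in 0 of them. For isolated peaks these shares were 99.9% and 96.9%.

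Most clusters stayed whole in the knockout, but clusters of 2 did so less often than pairs of consecutive isolated peaks (89.2% against 97.0%). Single peaks of these pairs were kept at 94.4% and 98.5%. Every peak was kept in 4309 of the 4866 clusters (88.6%), some but not all in 545, and none in 12. The knockout list had 8791 peaks that the wild-type list lacked, and 17.0% of them were clustered within the knockout list, against 12.7% of its shared peaks. Such a knockout-only peak lay within 2000 bp of 5 of the 573 absent clustered peaks (0.873%) and of 81 of the 9442 kept ones (0.858%), so absent peaks had no more new peaks beside them than kept ones.

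On day 10, the list of cells with Smarca5 shRNA held 98.3% of the 52252 peaks found with OSKM and Ctcf. It held 98.9% of those that overlapped a clustered ESC peak, 99.2% of those that overlapped a peak of the class between and 99.6% of those that overlapped an isolated one. The 4060 peaks that overlapped no ESC peak were kept at 86.7%. Clustered minus isolated gave a difference of -0.738 points (-1.07 to -0.448), with 63 and 30 peaks absent. Against peaks with a neighbour over 2000 and up to 5000 bp away the difference was 0.0491 points (-0.315 to 0.386). Addition of Ctcf to OSKM left 99.7% of the 43356 OSKM peaks in place, with 11 of 4800 clustered and 4 of 6692 isolated ones absent.

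Presence outside ESCs differed between clustered and isolated peaks by 5.35 points or less in each of the 13 CTCF lists of fibroblasts and reprogramming cells, and in both directions. The day 0 control list held 33.3% of all wild-type ESC peaks, 30.2% of the clustered (29.3 to 31.1) and 30.6% of the isolated ones, a difference of -0.399 points (-1.56 to 0.767). Both classes were below the 34.5% of the class between. The small difference joined opposite ones: it was -3.96 points (-5.55 to -2.36) inside gene spans and 5.86 points (3.61 to 8.14) over 10 kb from protein-coding genes. It was -3.23 points with isolation set at 10000 bp and 3.14 points at 50000 bp.

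In the sorted control lists the sign differed between populations. Clustered peaks were found more often than isolated ones in Thy1+ cells (57.4% against 54.2%, with 58.4% of all peaks) and less often in SSEA1- Thy1- cells (53.9% against 55.8%, 57.4% of all) and SSEA1+ cells (54.0% against 57.6%, 58.5% of all). In day 12 Oct4-GFP+ cells they were found more often again, at 59.1% against 54.3% (59.6% of all), a difference of 4.83 points (3.58 to 6.08) that was positive on 18 of 20 chromosomes. On day 10 with OSKM the shares were 47.9% and 44.8% (49.8% of all), and with added Ctcf 56.6% and 53.7% (57.9% of all). With added Ctcf and Smarca5 shRNA they were 56.3% and 53.6% (57.6% of all).

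The lists with Ctcf shRNA followed their controls at lower shares. On day 0 they held 24.2% of clustered and 24.0% of isolated peaks (26.9% of all), in Thy1+ cells 48.9% and 47.0% (50.8% of all), in SSEA1- Thy1- cells 46.9% and 47.6% (50.2% of all) and in SSEA1+ cells 47.1% and 48.0% (50.9% of all). On day 12 they held 39.7% and 34.3% (39.7% of all), 5.35 points more of the clustered peaks (4.13 to 6.58).

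Isolated peaks were found in ESCs alone more often than the other classes. All 15 CTCF lists held 17.3% of the clustered peaks (16.6 to 18.0), 21.3% of the class between and 16.1% of the isolated peaks. No list outside the 2 ESC lists of CTCF held 18.6% of the clustered peaks (17.8 to 19.3), a like share of the class between (11036 of 58227, 18.6 to 19.3) and 23.5% of the isolated peaks (22.8 to 24.2).

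**Figure D2:**
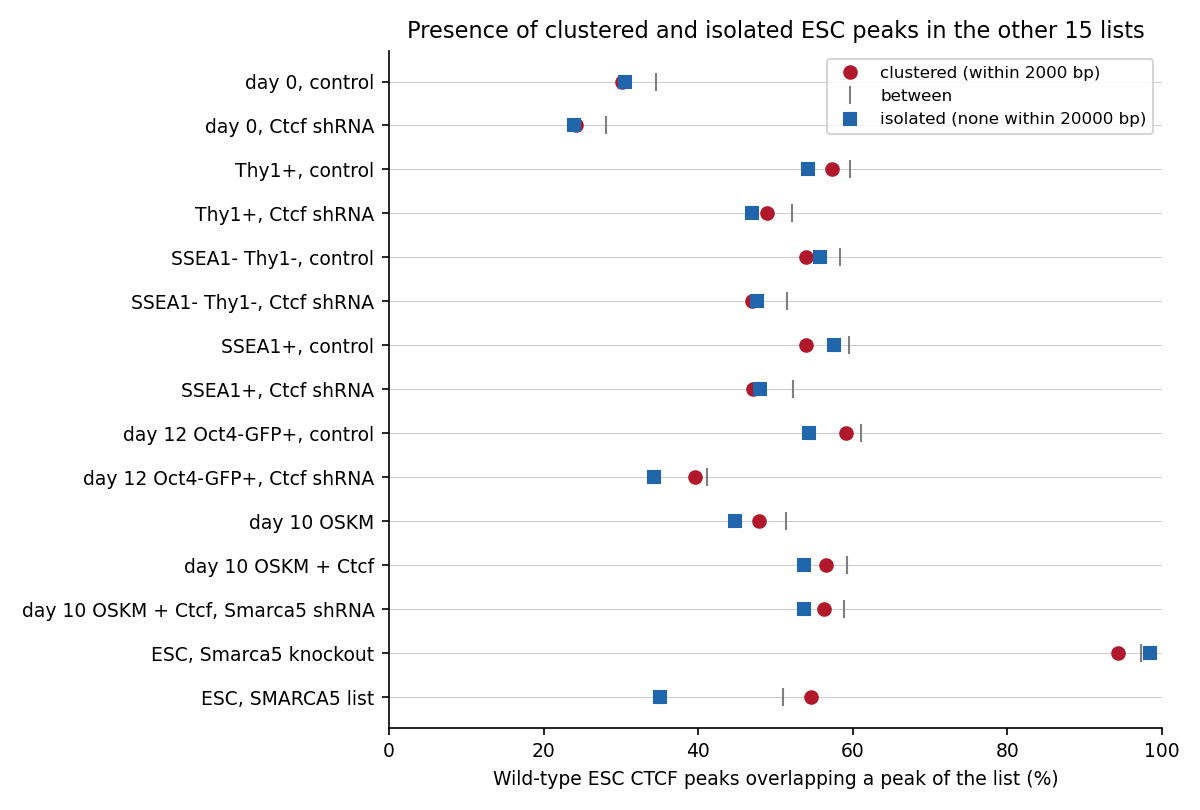
Share in percent of the wild-type ESC CTCF peaks that overlap a peak of each of the other 15 lists. Circles are clustered peaks, ticks are peaks of the class between and squares are isolated peaks. Clustered and isolated peaks lie 19.6 points apart in the SMARCA5 list and within 5.35 points of each other in the 13 lists outside ESCs.

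With Ctcf shRNA, the difference in the kept share between clustered and isolated peaks had a different sign in different cell populations. Kept shares were counted over control-list peaks that overlapped a clustered or an isolated ESC peak. On day 0, where 73.3% of all control peaks were kept, the shares were 72.6% of 3024 clustered and 72.2% of 4568 isolated peaks. In Thy1+ cells (81.1% of all) they were 80.3% and 83.3%, a difference of -3.02 points (-4.33 to -1.72).

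In SSEA1- Thy1- cells (82.0% of all) the kept shares were 81.8% and 82.2%, and in SSEA1+ cells (82.0% of all) 82.8% and 81.1%, a difference of 1.65 points (0.343 to 2.94). In day 12 Oct4-GFP+ cells, where 58.6% of all control peaks were kept in a list of 35803 against 53043 peaks, 3565 of 5945 clustered and 4478 of 8149 isolated peaks were kept, a difference of 5.01 points (3.36 to 6.66). Over the 5 populations the mean difference was 0.719 points (SD 2.94, n = 5), positive in 3 and negative in 2, and it was not larger than its spread (two-sided exact permutation of signs, p = 0.688, where the smallest p that 5 populations allow is 0.0625).

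Without the Thy1+ lists the mean was 1.65 points (exact permutation p = 0.375), and without day 12 it was -0.355 (exact permutation p = 0.75). The mean also moved with gene position. Over 10 kb from protein-coding genes it was 4.36 points, positive in 5 of 5 populations including Thy1+ cells at 1.26 (exact permutation p = 0.0625), and 5.13 points without Thy1+. Inside gene spans it was -1.68 points, negative in 4 of 5 populations (exact permutation p = 0.313), and -0.780 without Thy1+. With isolation set at 50000 bp it was 3.01 points, and 4.59 without Thy1+. Against peaks with a neighbour over 2000 and up to 5000 bp away, clustered peaks were kept slightly less often in 5 of 5 populations. Differences ran from -0.703 to -0.145 points, each with a counting interval that spanned 0. Their mean was -0.442 points (exact permutation p = 0.0625, the smallest allowed). All populations were scored on the same ESC peak classes, so equal signs need not be 5 independent repeats. Against peaks from 5000 to 20000 bp the mean difference was -3.21 points. Without Thy1+ cells these means were -0.376 and -2.95 points. As in the knockout, kept shares stepped at 5000 bp: on day 0 they were 71.6% for neighbours over 4000 and up to 5000 bp away and 77.6% for those over 5000 and up to 6000 bp, and in Thy1+ cells 81.2% and 85.0%.

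**Figure D3:**
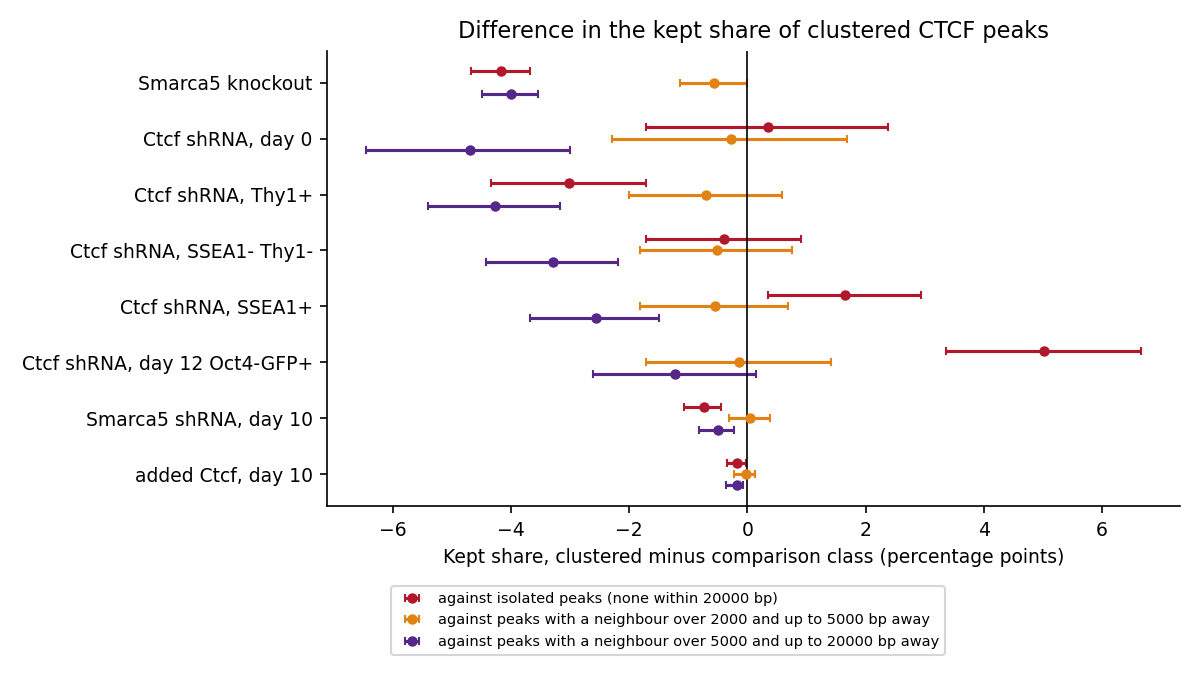
Difference in percentage points between the kept share of clustered CTCF peaks and that of 3 comparison classes, for each contrast of a first list with a second. Points are differences and bars are 95% Newcombe intervals for counting error. Against peaks with a neighbour over 2000 and up to 5000 bp away the Ctcf shRNA differences lie between -0.703 and -0.145 points, with bars that span 0.

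Peaks of one cluster were present or absent together more often than consecutive isolated peaks in the 4 control lists given here. Of the 4603 clusters of 2, both peaks were in the day 12 control list in 40.8%, 1 in 36.4% and neither in 22.8%. Among 14910 pairs of consecutive isolated peaks, which use each peak in up to 2 pairs, these shares were 30.4%, 47.7% and 21.8%. In the day 0 control list both were present in 13.1% of clusters and 10.1% of isolated pairs, and only 1 in 34.2% and 40.9%. In the Thy1+ control list only 1 was present in 42.3% and 46.4%, and in the SSEA1+ control list in 42.0% and 46.7%. In all 4 lists a cluster with only 1 of its peaks present was thus less frequent than an isolated pair with only 1.

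For SMARCA5 the order depended on the spacing of the pairs. Pairs of 1 fate were less frequent in clusters of 2 than in isolated pairs by a difference of -4.87 points, which turned to 3.36 points with clusters set at 1000 bp. Both peaks of a cluster of 2 overlapped SMARCA5 in 31.6%, 1 in 45.8% and neither in 22.6%, while isolated pairs had 14.6%, 40.9% and 44.5%. The single shares differ between these classes (54.5% and 35.0%), which moves all 3 values. In the knockout both peaks of a cluster were kept in 89.2% and 1 in 10.6%, against 97.0% and 2.95% of isolated pairs.

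On day 12 with Ctcf shRNA, both peaks were kept in a larger share of clusters than of isolated pairs. Where both peaks of a cluster of 2 were in the day 12 control list (1877 clusters), both were kept in 44.3%, 1 in 40.0% and neither in 15.8%. For the 4536 isolated pairs these shares were 31.3%, 48.8% and 19.9%. Single peaks of these pairs were kept at 64.3% in clusters and 55.7% in isolated pairs, which moves all 3 values. In Thy1+ cells both were kept in 68.0% of 1677 clusters and 70.4% of 4615 isolated pairs. On day 0 both were kept in 56.2% and 53.5%, in SSEA1- Thy1- cells in 69.0% and 68.9%, and in SSEA1+ cells in 72.2% and 67.2%. Only 1 was kept in 38.8% of clusters and 38.2% of isolated pairs on day 0, and in 28.2% and 26.8% in Thy1+ cells. In SSEA1- Thy1- cells these shares were 27.2% and 28.4%, and in SSEA1+ cells 24.9% and 28.9%.

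**Figure D4:**
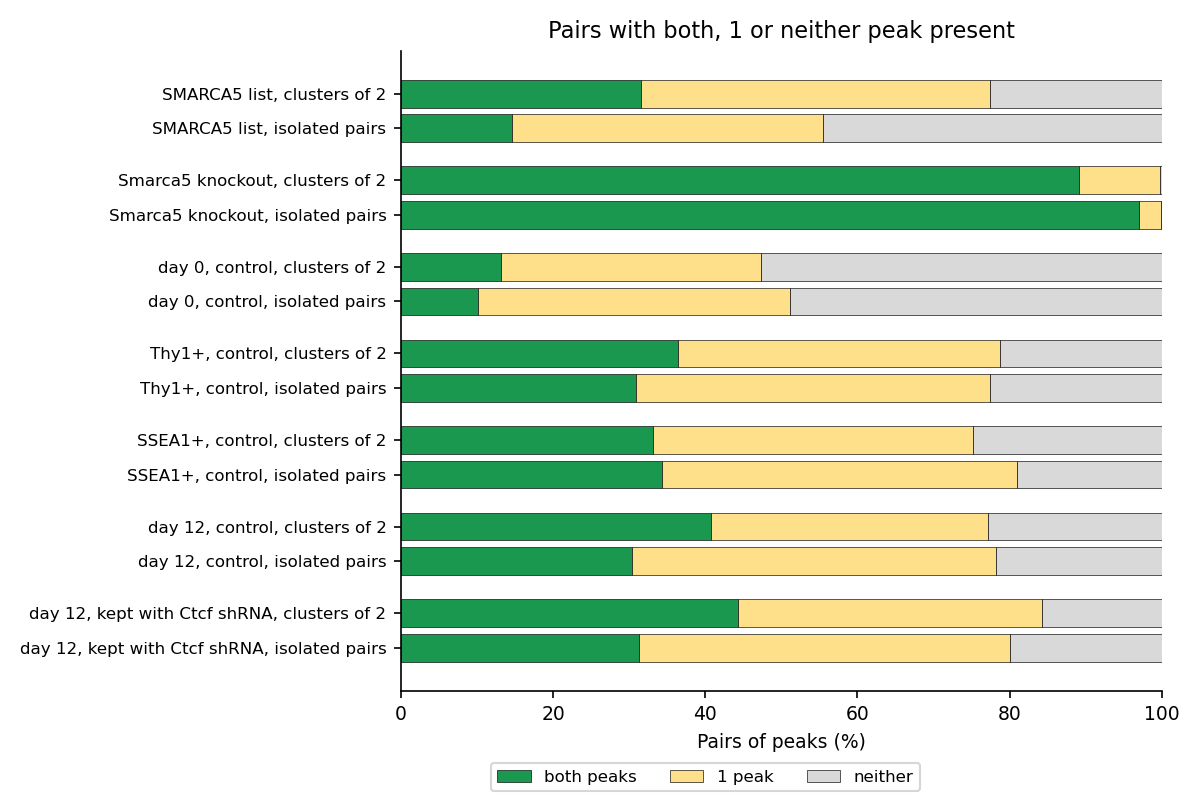
Share in percent of pairs with both peaks, 1 peak or neither peak in a list, for clusters of 2 and for consecutive isolated peaks. The last 2 bars count pairs with both peaks in the day 12 control list. For the day 12 control, both peaks are present in 40.8% of clusters and 30.4% of isolated pairs, and single peaks at 59.0% and 54.3%.

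Clustered peaks lay near genes more often than isolated ones. Within 10 kb of the span of a protein-coding gene lay 70.8% of all wild-type peaks, 78.6% of clustered peaks (77.8 to 79.4), 74.6% of the class between and 50.6% of isolated peaks. Of peaks with a neighbour over 2000 and up to 5000 bp away, 77.1% lay within 10 kb and 57.7% inside a span. Inside a span lay 58.3% of clustered peaks, 58.1% of the class between, 42.8% of isolated peaks and 55.4% of all. By that measure clustered peaks were close to the class between, and isolated peaks were lower. The centre was within 1000 bp of a RefSeq transcription start in 1207 clustered peaks (12.1%, 11.4 to 12.7) and in 929 isolated peaks (6.22%, 5.85 to 6.62), and 8.32% of peaks with a neighbour over 2000 and up to 5000 bp away lay that close. Within 5000 bp of a start the shares were 29.0%, 12.0% and 25.4%.

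A clustered peak lay within 10 kb of 4428 of 21887 protein-coding genes (20.2%), and of the peaks within 10 kb of any such gene 13.4% were clustered. In the gene groups below, a peak near several members counts once for the group, and long genes have more peaks and so more room for clusters. Of all 10015 clustered peaks, 54.6% overlapped SMARCA5 and 94.3% were kept in the knockout. The day 0 control list held 30.2% of them and the day 12 control list 59.1%. Of 5945 clustered peaks of the day 12 control list, 3565 were kept with Ctcf shRNA. Whether the counts of any group differ from these shares was not tested. Genes of the pluripotency network had 33 clustered among 158 peaks (20.9%, 15.3 to 27.9), near 13 of 30 genes. Of these 33, SMARCA5 overlapped 17, the knockout list held 32, the day 0 control list 4 and the day 12 control list 19, of which 9 were kept with Ctcf shRNA.

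Trim71, an RNA-binding regulator of early development, had 6 clustered of 10 peaks on chromosome 9. These formed 3 pairs, of which 5 peaks were kept in the knockout and 4 were in the day 12 control list. Pou5f1, which encodes Oct4, had 4 of 5, and Nanog, a transcription factor of the naive ESC network, 4 of 6. At both genes the 4 peaks formed 2 pairs, SMARCA5 overlapped 2, the knockout list held all 4, the day 0 control list 0 and the day 12 control list 2, of which 1 was kept with Ctcf shRNA.

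Fibroblast and mesenchymal genes had 20 clustered among 111 peaks (18.0%), near 10 of 30 genes, and all 20 were kept in the knockout. The 2 clustered peaks at Col1a2, a chain of type I collagen, overlapped SMARCA5 and were in the day 0, Thy1+, SSEA1- Thy1-, SSEA1+ and day 12 control lists alike. At Col5a1, a chain of type V collagen, both of its clustered peaks were in the Thy1+ control list and 0 in the day 0 and day 12 control lists. Thy1, the surface marker used in the sort, had 2 clustered of 3 peaks, found neither in the day 0 nor in the Thy1+ control list, and 1 of them on day 12.

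Epithelial genes had 16 clustered among 85 peaks (18.8%), near 7 of 20 genes, with 14 kept in the knockout and 14 in the day 12 control list. Cdh3, which encodes P-cadherin, had 4 of 10, Dsp, the desmosome protein desmoplakin, 3 of 6 and the tight-junction gene Ocln 2 of 5. One of the 2 at Ocln was absent in the knockout although both overlapped SMARCA5. At Dsp 0 of 3 peaks were in the day 10 OSKM list and 3 of 3 with added Ctcf.

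Imprinted genes had the highest clustered share among the groups with at least 100 peaks, 24 of 104 (23.1%), near 11 of 34 genes. SMARCA5 overlapped 18 of the 24, and 23 were kept in the knockout. Gnas, which encodes a G-protein subunit, and Meg3, a non-coding RNA of the Dlk1 domain, each had 4 clustered of 6 peaks, 3 with SMARCA5 and all kept in the knockout. The potassium channel gene Kcnq1 had 3 in 1 cluster, all in the day 12 control list, and 0 of these were kept with Ctcf shRNA, where the Thy1+ shRNA list kept 2 of 3.

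Genes of CTCF, cohesin and ISWI remodelling had 17 clustered among 145 peaks (11.7%), near 7 of 28 genes. Pds5a, a cohesin regulator, had 4 of 8, the remodeller subunit gene Bptf 3 of 14 and the cohesin subunit gene Stag1 2 of 12. Both Stag1 peaks were kept in the knockout and were in 0 of the day 0, sorted and day 12 control lists and of the day 10 lists with OSKM or with OSKM and Ctcf. Loci of X inactivation and X-linked CTCF repeats had 5 of 48 peaks clustered. The non-coding RNA genes Xist and Tsix, which overlap, shared 1 pair with SMARCA5 on 1 peak, and Ftx, a neighbouring non-coding RNA gene, had 1 pair without SMARCA5.

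Neural regulators had 8 clustered among 35 peaks (22.9%, 12.1 to 39.0), near 3 of 16 genes, 4 at Gbx2, 2 at Neurog1 and 2 at Olig2, which encode transcription factors of brain patterning and neurogenesis. All 8 were kept in the knockout, 7 were in the day 12 control list and 6 of those were kept with Ctcf shRNA. The large cell adhesion and synapse genes had 24 of 271 peaks clustered (8.86%, 6.02 to 12.8), near 6 of 12 genes, while 123 peaks were isolated. SMARCA5 overlapped 4 of the 24. Cntnap2, which encodes a cell adhesion protein of neurons, had 4 of 28, in 2 pairs that were all kept in the knockout.

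Gene families that lie in arrays differed in their clustered share. Clustered protocadherins, adhesion proteins expressed in combinations by single neurons, had 4 of 78 peaks clustered (5.13%, 2.01 to 12.5), in 2 pairs near Pcdhga1, 1 of which was also near Pcdhga2 and Pcdhga3. Olfactory receptors had 14 of 254 (5.51%, 3.31 to 9.04), including pairs at Olfr1349, Olfr159 and Olfr66. The keratin list, which also held keratin-associated protein genes, had 4 of 71. All 4 lay at keratin-associated genes, 1 pair at Krtap12-1 and 1 pair near both Krtap5-1 and Krtap5-4. Vomeronasal receptors had 6 of 50 (12.0%, 5.62 to 23.8), 1 pair each at Vmn2r13, Vmn2r22 and Vmn2r90. Hox genes had 6 of 43 (interval 6.56% to 27.3%), with a pair at Hoxc11 and another shared by Hoxc12 and Hoxc13, and 1 of the 6 was in the day 12 control list.

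Zinc finger protein genes had 145 of 940 peaks clustered (15.4%, 13.3 to 17.9), of which 90 overlapped SMARCA5 and 133 were kept in the knockout. Zfp64 had 7 of 13, all 7 in the day 12 control list and 5 of these kept with Ctcf shRNA, while Zfp469 had 6 of 19 with 0 in that list. Zfp219 had 4 of 7. Genes of the major histocompatibility complex had 11 of 54, and the antigen-loading genes H2-DMa and H2-DMb1 had 4 of 6 and 3 of 3, with 2 more at H2-M5. Of the 3 at H2-DMb1, SMARCA5 overlapped 0, and all 3 were in the Thy1+ and day 12 control lists and in neither the SSEA1- Thy1- nor the SSEA1+ one.

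Few genes had no clustered peak left in the knockout. Of protein-coding genes with a clustered peak within 10 kb, 14 of 4428 kept 0 in the knockout (0.316%), among them Itch, a ubiquitin ligase, and Rabgef1, an activator of Rab5, each with 1 pair that lacked SMARCA5. With Ctcf shRNA, protein-coding genes with clustered peaks in the control list and 0 of them kept were counted. They numbered 496 of 2213 on day 0 (22.4%), 485 of 3690 in Thy1+ (13.1%) and 368 of 3357 in SSEA1- Thy1- (11.0%). In SSEA1+ they were 419 of 3424 (12.2%) and in day 12 cells 1060 of 3518 (30.1%). Single clustered peaks absent were 829 of 3024 on day 0, 2380 of 5945 on day 12 and 573 of 10015 in the knockout. Genes with 1 clustered peak in the control list, such as Pds5a on day 12, could enter the shRNA counts. The gene shares are therefore not comparable with that of the knockout, and genes that lost every isolated peak were not counted.

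On day 0, Fry and Nup205, a nuclear pore gene, each had 3 clustered peaks in the control list and 0 with Ctcf shRNA. In Thy1+ cells the histone H2A genes H2ac20 and H2ac21 shared a cluster of 3 of which 0 were kept. The scaffold gene Iqgap1 kept 0 of 4 in SSEA1- Thy1- cells, and the kinase gene Map4k4 0 of 3 there and 0 of 4 in SSEA1+ cells, where the coenzyme A synthesis gene Pank2 kept 0 of 3. In day 12 cells the histone chaperone gene Nasp and the exchange factor gene Arhgef10l each kept 0 of 4. In Thy1+ cells, by contrast, 4 of 4 clustered peaks of the control list at Nasp were kept.

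The genes with the most clustered peaks, chosen after their values were seen, were Camta1 with 14 of 54, Sfi1 with 13 of 18 and Rere, G3bp2, Fry and Gse1 with 10 each. Camta1 encodes a calmodulin-binding transcription activator, Sfi1 a centrosome protein, Rere a nuclear co-regulator and G3bp2 a stress granule protein. At Sfi1 10 of 13 were kept in the knockout, SMARCA5 overlapped 10, and the day 0 control list held 0. At Camta1 all 14 were kept and SMARCA5 overlapped 4.

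The 12 clusters with the most peaks together held 50 peaks. They are the 2 clusters of 5 and, of the 16 clusters of 4, the 10 with the shortest spans. SMARCA5 overlapped 27 of these, 44 were kept in the knockout, 13 were in the day 0 control list and 25 in the day 12 control list, of which 18 were kept with Ctcf shRNA. The 2 clusters of 5 were near 1810055G02Rik on chromosome 19 (chr19:3719304-3725195), where 4 of 5 peaks were kept in the knockout and 4 were in the day 12 control list, and inside Dnah17 on chromosome 11 (chr11:118038307-118044866), a dynein heavy chain gene, where all 5 were kept and 1 was in the day 12 control list.

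Among the clusters of 4, that at the serotonin receptor gene Htr1b had SMARCA5 on all 4 peaks, and 3 were kept in the knockout. Bcl6, a transcriptional repressor gene, and Sap30bp had clusters inside their spans with 2 and 1 of 4 peaks on SMARCA5, all kept. The cluster near the junction protein gene Cgnl1 had 4 peaks in the day 12 control list, 3 of them kept with Ctcf shRNA. Others lay near Msl1, Zfp426, Ddx55 and Txnl1, and 2 had no gene within 10 kb. Absent peaks numbered at most 1 in each of the 12 clusters.

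**Figure D5:**
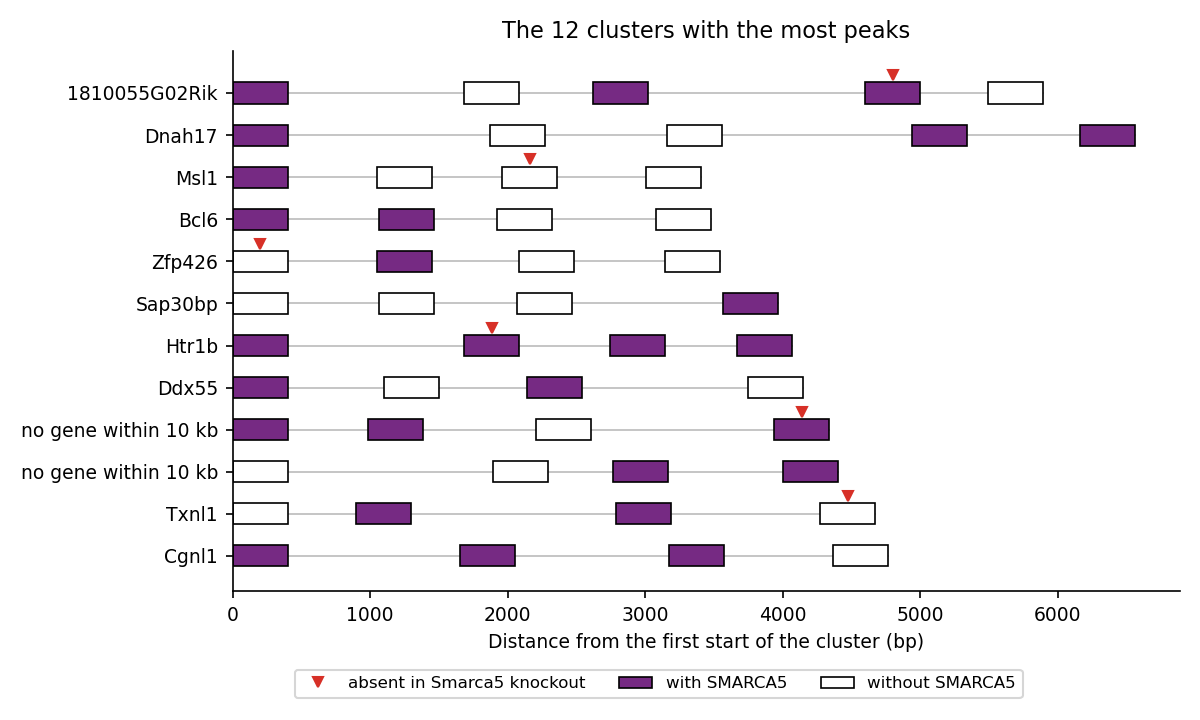
The 2 clusters of 5 CTCF peaks and the 10 shortest of the 16 clusters of 4, named by gene, with each peak of 400 bp drawn to scale by its distance in bp from the first start. Filled boxes overlap a SMARCA5 peak, open boxes do not, and triangles mark peaks absent in the Smarca5 knockout. Of 50 peaks, 27 are filled and 6 have a triangle.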

How the data were processed

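Per the submitters' processing notes, the tools included MACS2, HOMER, Bowtie2, Picard, Trim Galore, bedtools, deepTools, SAMtools and FastQC, with build mm10 (GRCm38). For thresholds, versions and pooling: not given in the sources used here. The authors deposited 400 bp intervals whose score is 0 in every line, so peaks could not be ranked by strength. The lists fall into 4 coordinate sets (3 ESC, 3 day 10, 8 sorted and 2 day 0 lists), within which sharing of positions can raise overlaps. Input samples were not used.

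Peaks were shared when they overlapped by at least 1 bp; the alternative asked for a reciprocal overlap of 50%. Shares have Wilson and differences Newcombe 95% intervals, for counting error only. The 5 Ctcf shRNA differences were tested by exact permutation of their signs, two-sided, with 1 main test. Further p-values of this kind belong to alternative settings and were not corrected for their number. All populations were scored on the same ESC peak classes. The comparison classes at 5000 bp were added after seeing the data. Where nothing says that samples behind a list came from separate cultures, their spread may be technical. Members, gene lists and tests were chosen with earlier results of these data known.

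Gene spans, starts and promoter windows came from RefSeq GRCm38.p6, the build of the lists, with 49943 genes, 21887 of them protein-coding. All genes of the 16 lists matched, 2 through a synonym (Gnasas1 and Zcchc13), except that the pattern for the histone cluster matched 0 symbols. Genes named are the up to 3 members per list with the most clustered peaks within 10 kb, the 2 genes per contrast with the most control peaks and none kept, the genes at the 12 largest clusters, and those stated as chosen afterwards. Some genes that this rule names are not reported here. Exon and intron annotation was left out. The scripts were tested on simulated data and ran in Python 3.11.15, NumPy 2.4.6, SciPy 1.17.1, pandas 2.3.3 and matplotlib 3.10.9.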

Additional observations from a re-analysis of the deposited data

Results flagged for a closer look

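The kept share with Ctcf shRNA, clustered minus isolated, took opposite signs in populations of the same contrast. It was -3.02 percentage points in Thy1+ cells, where the day 3 labels disagree, and 1.65 points in SSEA1+ cells and 5.01 points in day 12 Oct4-GFP+ cells. The difference between these populations was not tested, since each had 1 list per shRNA. Peaks with a neighbour over 2000 and up to 5000 bp away, as the comparison class, gave values from -0.703 to -0.145 in all 5 populations. Each of these values had a counting interval that spanned 0. Over 10 kb from protein-coding genes the values were positive in all 5 populations, from 1.26 in Thy1+ to 8.45 in day 12 cells.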

How the results depend on the processing

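Of 76 alternatives, 27 moved a value out of its main interval or spread and 8 reversed its sign. The other 41 stayed inside that interval or, for the Ctcf shRNA mean, kept its sign with no p under 0.05, whatever their size. A p under 0.05 could not be reached with 5 or fewer populations, so for that mean the sign alone decided. The reciprocal overlap could not change the SMARCA5 and knockout differences, since all of those overlaps had identical starts. All values are percentage points, clustered minus comparison class, and unless said otherwise the cause was not tested. The SMARCA5 difference was 24.5 and 16.9 with clusters set at 1000 and 5000 bp, 12.1 and 29.1 with isolation set at 10000 and 50000 bp, 14.4 inside gene spans and 22.6 over 10 kb from genes. Against the classes with neighbours over 2000 to 5000 and over 5000 to 20000 bp away it was 4.24 and 3.26. The knockout difference was -0.564 against the nearer class, -3.27 among peaks with SMARCA5 and -5.68 without. The mean Ctcf shRNA difference rose to 4.36 over 10 kb from genes and 3.01 with isolation at 50000 bp. It reversed to -0.381 at 1000 bp, -1.26 with isolation at 10000 bp, -1.68 inside gene spans and -0.442 and -3.21 against the 2 classes. Without the Thy1+ lists these reversed means were, in the same order, 1.03, -0.645, -0.780, -0.376 and -2.95. The reversal at 1000 bp was thus absent without the lists whose day 3 labels disagree. With 1 population left out the mean ran from -0.355 (without day 12 Oct4-GFP+ cells) to 1.65. The Smarca5 shRNA difference was -1.15 at 1000 bp, -0.190 over 10 kb from genes and 0.0491 against the nearer class.

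Presence on day 0 was -2.57 at 1000 bp, 0.128 at 5000 bp, -3.23 and 3.14 with isolation at 10000 and 50000 bp, -3.96 inside gene spans, 5.86 over 10 kb from genes and -5.76 against the farther class. The gene difference was 18.3 and 41.8 with those isolation distances, 1.51 and 5.04 against the 2 classes and 22.0 with spans widened by 2.5 kb. The share of pairs of 1 fate for SMARCA5, in clusters of 2 against isolated pairs, was -4.87 points, 3.36 at 1000 bp and -6.68 at 5000 bp. The median clustered share over the 15 CTCF lists, 9.12%, was 2.29% at 1000 bp and 22.5% at 5000 bp, since the rule itself changes. Overlapping intervals within the 8 sorted lists count in these shares, and their part was not tested. No paired analysis was possible because replicates are merged in 1 list per group, so no list carries a replicate number. With 1 list per group and a score of 0 throughout, depth limits cannot be stated, and a lost peak cannot be told from a weakened one.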
